A study of Mus musculus with 14 samples.

Results

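Dual-specificity phosphatases remove phosphate from both the tyrosine and the threonine that switch on a MAP kinase. The 10 genes described here are the mouse genes Dusp1, Dusp3, Dusp4, Dusp5, Dusp6, Dusp7, Dusp10, Dusp14, Dusp16 and Dusp26, out of 43346 genes in the count table. They were found by gene identifier, and all 10 had enough counts to be tested. They were chosen by name as relatives of Dusp14 and Dusp26. Those 2 genes were selected on their adjusted p in the comparison of seizure and sham cells with GFP alone, so their values there are a description.

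RNA was read from live GFP-positive cells of the hippocampus, labelled as adult-born granule cells, the neurons that the dentate gyrus adds in adult life. The 14 libraries came from wild-type C57BL/6 mice at day 14, with 800 to 1000 cells each. In 3 DREADD Pilo libraries and 4 CAG-GFP Pilo libraries the mice had seizures after pilocarpine at 300 mg/kg, and the 4 DREADD Sham and 3 CAG-GFP Sham libraries came from mice without seizures. DREADD cells carry a designer receptor that clozapine-N-oxide (CNO) activates, and CAG-GFP cells carry GFP from the CAG promoter. All 4 groups received CNO, and the labels describe the DREADD Pilo cells as silenced. The labels give pilocarpine mice scopolamine methyl nitrate and terbutaline beforehand and diazepam to end the seizures. No account of the sham treatment, the promoter of the DREADD, the age of the mice or the number of mice behind each library is given in the sources used here, so p-values measure the spread between these libraries, which may be technical.

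MAP kinase cascades carry signals from growth factors, calcium and stress to transcription, and in neurons the ERK branch is switched on by firing. The classical phosphatases Dusp1, Dusp4, Dusp5, Dusp6, Dusp7, Dusp10 and Dusp16 carry a docking domain for MAP kinases, and several are themselves induced by the pathway they switch off. Dusp3, Dusp14 and Dusp26 are small atypical members without that domain, and Dusp26 is known for its expression in brain.

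Several libraries stood apart. Total counts ran from 10613291 to 38614639, and 9372 genes were detected in CAG-GFP Pilo 4, against 14512 to 20863 in the other libraries. Prox1, the defining transcription factor of granule cells, and Dcx, a marker of immature neurons, were both at 0 in DREADD Pilo 3 and CAG-GFP Pilo 4. Over their full lists these 2 libraries differed. The 12 neuroblast and immature neuron markers summed to 27.1 CPM in DREADD Pilo 3, with 5 at 0. In CAG-GFP Pilo 4 they summed to 835.9 CPM, with 3 at 0, inside the group's range of 637.3 to 1583 CPM. The 12 mature granule cell markers summed to 140.1 CPM (6 at 0) and 364.4 CPM (7 at 0) in these 2 libraries. In DREADD Pilo 3 the 9 ependyma and choroid plexus markers summed to 161500 CPM (counts scaled to 1000000 per library), of which Ttr made 150100 CPM, and 25.8% of counts were mitochondrial. The 12 astrocyte markers summed to 1554 to 3546 CPM in DREADD Pilo, 778 to 6472 CPM in CAG-GFP Pilo, 1954 to 4935 CPM in DREADD Sham and 28120 to 29590 CPM in CAG-GFP Sham. The library names came in 2 spellings, called set 1 and set 2 here, and the share of counts on pseudogenes was 0.117% to 0.2% in set 1, against 4.33% to 8.12% in set 2. All DREADD Pilo libraries were in set 2 and all CAG-GFP Sham libraries in set 1, so these 2 groups share no set.

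The catalytic site is what the 10 genes share in sequence. It holds a cysteine that attacks the phosphate, next to a histidine, and an arginine that binds it, with 5 residues between the cysteine and the arginine. The coding sequence of every member held this pattern once. The sites of Dusp14 and Dusp26, of the other atypical member and, for comparison, of the nuclear Dusp1 and the cytoplasmic Dusp6 follow in 48 bases each, 5′ to 3′ on the coding strand. Capitals mark the codons of the histidine, the cysteine and the arginine.
Dusp14: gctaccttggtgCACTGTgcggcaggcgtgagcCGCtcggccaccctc
Dusp26: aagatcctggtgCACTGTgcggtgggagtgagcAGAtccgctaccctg
Dusp3: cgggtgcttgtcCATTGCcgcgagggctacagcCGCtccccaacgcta
Dusp1: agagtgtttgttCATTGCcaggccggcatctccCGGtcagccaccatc
Dusp6: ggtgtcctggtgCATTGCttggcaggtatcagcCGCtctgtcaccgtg

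These stretches lie on GRCm38 at chr11:84048851-84048898 (minus strand) for Dusp14, chr8:31096191-31096238 (plus strand) for Dusp26, chr11:101974890-101974937 (minus strand) for Dusp3, chr17:26506580-26506627 (minus strand) for Dusp1 and chr10:99266015-99266062 (plus strand) for Dusp6. Each is coding and within 1 exon. Over the 24 bases of the site alone, Dusp14 and Dusp26 were identical at 19 (79.2%), and Dusp14 and Dusp26 are the members shown whose cysteine is written TGT. The pair Dusp1 and Dusp4 was identical at 22 bases (91.7%), and the least alike pair, Dusp16 and Dusp26, at 10 bases (41.7%). The coding regions of Dusp14 and Dusp26 have 198 and 211 codons, against 367 codons in Dusp1.

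Dusp14 (ENSMUSG00000018648.11, GRCm38 chr11:84048041-84069261, minus strand) encodes a small phosphatase known in T cells of mice as a brake on receptor signalling. Its level was 22.6, 37.6 and 49.7 CPM in the 3 DREADD Pilo libraries, with CPM scaled by library total and TMM factor. It was 220.4, 164.6, 155.0 and 148.5 CPM in the 4 CAG-GFP Pilo libraries. It was 16.7, 66.8, 33.4 and 18.9 CPM in the 4 DREADD Sham libraries, and 3.28, 4.44 and 0.839 CPM in the 3 CAG-GFP Sham libraries. All CAG-GFP Pilo libraries were above every library of the other groups, all CAG-GFP Sham libraries were below, and the DREADD groups overlapped each other in between.

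The means ± SD of Dusp14 were 36.6 ± 13.6 CPM in DREADD Pilo (n = 3), 172.1 ± 32.9 CPM in CAG-GFP Pilo (n = 4), 34.0 ± 23.1 CPM in DREADD Sham (n = 4) and 2.86 ± 1.84 CPM in CAG-GFP Sham (n = 3). The fitted log2 fold change was 5.91 ± 0.85 (SE) for CAG-GFP Pilo over CAG-GFP Sham, 3.57 ± 0.75 for DREADD Sham over CAG-GFP Sham and -2.23 ± 0.70 for DREADD Pilo over CAG-GFP Pilo. These 3 values share libraries with the comparison that chose the gene and are given without a test. Within library set 1 the first was 5.71 and the second 3.86, and within set 2 the third was -2.37, with the same signs.

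DREADD Pilo against DREADD Sham shares no library with the comparison that chose Dusp14, and here the gene was not distinguishable between the groups. Its log2 fold change was 0.11 ± 0.65 (edgeR quasi-likelihood test, Benjamini-Hochberg adjusted p = 1). Within library set 2 it was 0.49 ± 0.57, and without DREADD Pilo 3, the library high in choroid plexus markers, it was -0.20. The interaction, the DREADD difference minus the CAG-GFP difference, was -5.80 ± 1.03 on the log2 scale, and -6.07 without DREADD Pilo 3. In these bulk samples fewer cells of a type and less RNA per cell cannot be told apart. The 12 mature granule cell markers summed to 140.1 to 424.8 CPM in DREADD Pilo and 364.4 to 1023 CPM in CAG-GFP Pilo. Their sums were 149.4 to 824.8 CPM in DREADD Sham and 86.3 to 114.1 CPM in CAG-GFP Sham. Their part in the Dusp14 differences, and that of the astrocyte markers, was not tested.

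**Figure D1:**
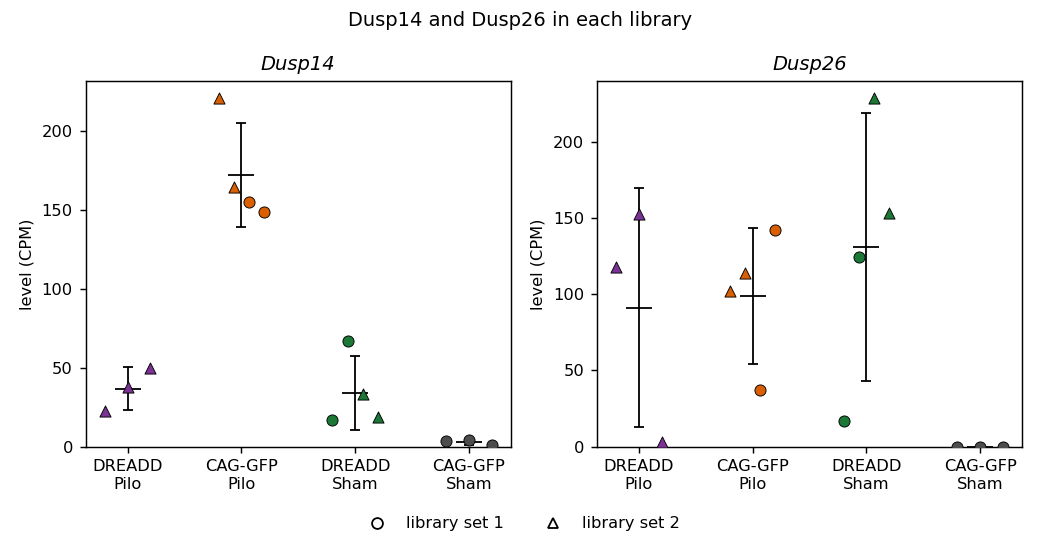
Level of Dusp14 and Dusp26 in CPM (vertical axes) in each of the 14 libraries by group. Circles are library set 1, triangles set 2, and bars show the mean ± SD of each group. Dusp14 lies between 148.5 and 220.4 CPM in CAG-GFP Pilo and below 5 CPM in CAG-GFP Sham, while Dusp26 is at or near 0 in CAG-GFP Sham and spread widely in the other 3 groups.

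Dusp26 (ENSMUSG00000039661.10, GRCm38 chr8:31089471-31097047, plus strand) encodes the brain-expressed atypical phosphatase. Its level was 117.7, 152.5 and 2.90 CPM in DREADD Pilo and 102.3, 113.6, 37.0 and 142.2 CPM in CAG-GFP Pilo. It was 16.6, 124.5, 228.3 and 153.4 CPM in DREADD Sham. In CAG-GFP Sham a single count was found in the 3 libraries together, at 0.0494 CPM in CAG-GFP Sham 2 and 0 in the others. The gene was thus close to absent from the counts of 1 group and overlapping among the other 3.

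The mean level of Dusp26 was 91.0 ± 78.3 CPM in DREADD Pilo (SD, n = 3), 98.8 ± 44.5 CPM in CAG-GFP Pilo (n = 4) and 130.7 ± 87.8 CPM in DREADD Sham (n = 4). Pooled over libraries, CAG-GFP Pilo had 11423 counts and CAG-GFP Sham 1, a ratio of levels of 5880 with a 95% exact counting interval of 1055 to 232200. DREADD Sham had 11944 counts against the same 1, a ratio of 6361 (1141 to 251300). The intervals cover counting error only, and both ratios use the CAG-GFP Sham libraries of the comparison that chose the gene. The fitted log2 fold changes of 12.13 ± 1.80 and 12.54 ± 1.82 (SE) rest on that 1 count and became 14.21 and 14.61 without CAG-GFP Sham 2. Within library set 1 they were 12.10 and 11.73.

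Between DREADD Pilo and DREADD Sham, the log2 fold change of Dusp26 was -0.52 ± 1.03 (edgeR, adjusted p = 1) and 0.03 without DREADD Pilo 3. Within library set 2 it was -1.08 ± 1.19. Set against CAG-GFP Pilo, DREADD Pilo gave -0.12 ± 1.02, or 0.44 with DREADD Pilo 3 left out, and -0.24 within set 2. The direction in both comparisons therefore turned with 1 library.

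The level of Dusp26 was set beside markers of oligodendrocyte precursors and of mature oligodendrocytes in each library. The 8 precursor markers summed to 1714, 1066 and 47.9 CPM in the libraries DREADD Pilo 1 to 3. In CAG-GFP Pilo 1 to 4 the sums were 784.1, 753.8, 138.8 and 1122 CPM. They were 427.0, 655.8, 990.4 and 951.4 CPM in DREADD Sham 1 to 4, and 25.2 to 45.6 CPM across CAG-GFP Sham. DREADD Pilo 3, CAG-GFP Pilo 3 and DREADD Sham 1, the lowest of their groups for Dusp26, were also the lowest of their groups for this sum. Cspg4 and Neu4, which mark these precursors, were at 0 in all 3 CAG-GFP Sham libraries. The 11 markers of mature oligodendrocytes summed to 410.1 to 42890 CPM in DREADD Pilo, 1334 to 38130 CPM in CAG-GFP Pilo, 19050 to 40680 CPM in DREADD Sham and 562.6 to 702.0 CPM in CAG-GFP Sham, and the same 3 libraries were the lowest of their groups. Above the lowest libraries, the mature oligodendrocyte sum kept the order of Dusp26 in DREADD Pilo and DREADD Sham, but not in CAG-GFP Pilo. The precursor sum kept that order in DREADD Sham, but not in DREADD Pilo or CAG-GFP Pilo. CAG-GFP Pilo 4 was the highest of its group for Dusp26, with a mature oligodendrocyte sum of 4306 CPM. That sum was 36030 and 38130 CPM in CAG-GFP Pilo 1 and 2. The part of such cells in the Dusp26 differences was not tested.

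The genes whose log2 CPM followed Dusp26 most closely over the 14 libraries were Neu4 (Pearson r = 0.985), Cspg4 (0.977), Chmp1a (0.972), Pxdc1 (0.970) and Arhgdia (0.965), among 11457 genes with a mean of at least 5 CPM. By Spearman correlation these 5 genes ranked 98, 5, 35, 219 and 18. Neu4 encodes a sialidase and Cspg4 the NG2 proteoglycan. Neu4 averaged 221.5 CPM in DREADD Pilo, 163.3 CPM in CAG-GFP Pilo, 149.4 CPM in DREADD Sham and 0 in CAG-GFP Sham. For Dusp14 the closest genes were Fbxo25 (0.896), Ccdc85b (0.890), Ppp2r5b (0.880), Ostf1 (0.871) and Ypel3 (0.857). Fbxo25, which encodes an F-box protein, averaged 37.9 CPM in DREADD Pilo, 88.8 CPM in CAG-GFP Pilo, 53.0 CPM in DREADD Sham and 24.9 CPM in CAG-GFP Sham. Among the 10 phosphatase genes, Dusp14 and Dusp26 were the most alike pair (r = 0.795), and Dusp3 and Dusp5 the least (r = -0.587). Dusp14 and Dusp26 were selected on the same difference between these libraries, so their likeness to each other is not independent of the choice. Nor is their likeness to the other genes named, since a gene low in CAG-GFP Sham shares that difference. These correlations describe 14 libraries that share groups and library sets and carry no test.

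Dusp3 (ENSMUSG00000003518.9, GRCm38 chr11:101971143-101987013, minus strand), which encodes a small phosphatase known to act on ERK and JNK, had a narrower range. Its level was 34.2, 37.8 and 29.3 CPM in DREADD Pilo, 57.0, 16.0, 32.1 and 36.6 CPM in CAG-GFP Pilo, 31.8, 15.9, 56.6 and 45.7 CPM in DREADD Sham and 10.4, 9.97 and 16.1 CPM in CAG-GFP Sham. The highest CAG-GFP Sham library overlapped the lowest library of CAG-GFP Pilo and of DREADD Sham. Without TMM factors the lowest CAG-GFP Pilo library was at 16.4 CPM and the lowest DREADD Sham library at 20.4 CPM. Both were then above the highest CAG-GFP Sham library at 11.01 CPM. The TMM factors were 0.683 to 0.713 in CAG-GFP Sham and 0.982 to 1.39 in CAG-GFP Pilo and DREADD Sham. Leaving them out therefore lowers every gene in CAG-GFP Sham relative to those groups. The share of all genes that separate in this way was not computed. The log2 fold change of CAG-GFP Pilo over CAG-GFP Sham was 1.54 ± 0.70 (SE), and 1.47 ± 0.86 within library set 1. That of DREADD Sham over CAG-GFP Sham was 1.63 ± 0.70 and did not pass the test in edgeR (adjusted p = 0.251), while DESeq2 gave an adjusted p of 0.0284. Within library set 1 the DREADD Sham value was 0.95 ± 0.86. An exon of Dusp3 overlaps Gm20659 on the opposite strand, and the strand setting of the counting is not given in the sources used here.

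Dusp1 (ENSMUSG00000024190.6, GRCm38 chr17:26505590-26562128, minus strand) encodes a nuclear phosphatase and is an immediate early gene, switched on within minutes by stress and neuronal firing. Its level was 100.2, 155.6 and 531.2 CPM in DREADD Pilo and 67.2, 52.2, 36.4 and 55.5 CPM in CAG-GFP Pilo. It was 22.1, 77.8, 112.9 and 132.0 CPM in DREADD Sham and 83.0, 54.4 and 68.5 CPM in CAG-GFP Sham. All DREADD Pilo libraries were above all CAG-GFP Pilo libraries, and the highest was DREADD Pilo 3.

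The log2 fold change of Dusp1 for DREADD Pilo over CAG-GFP Pilo was 2.31 ± 0.67 (SE) and did not pass over all genes (edgeR, adjusted p = 0.882). Without DREADD Pilo 3 it was 1.26, and within library set 2 it was 2.16 ± 0.82. For DREADD Pilo over DREADD Sham it was 1.61 ± 0.66 (adjusted p = 0.954), 0.55 without DREADD Pilo 3 and 1.11 ± 0.78 within set 2. The interaction was 1.98 ± 0.93 (adjusted p = 0.423) and 0.98 without DREADD Pilo 3. Seizures with GFP alone gave -0.38 ± 0.66 over CAG-GFP Sham, and -0.59 ± 0.66 within set 1. The part of the choroid plexus signal of DREADD Pilo 3 in these values was not tested. An exon of Dusp1 overlaps Ergic1 on the other strand.

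The promoter of Dusp1 is shown because the cAMP response element is the motif through which firing and cAMP are known to reach immediate early genes. RefSeq (GRCm38.p6) gave windows of 250 bases before to 50 after the start for 8 of the 10 members. The 200 bases from 250 to 51 before the start of Dusp1, chr17:26508523-26508722 (minus strand), follow 5′ to 3′, with matches to TGACGTCA and TGACG on either strand in capitals.
Dusp1: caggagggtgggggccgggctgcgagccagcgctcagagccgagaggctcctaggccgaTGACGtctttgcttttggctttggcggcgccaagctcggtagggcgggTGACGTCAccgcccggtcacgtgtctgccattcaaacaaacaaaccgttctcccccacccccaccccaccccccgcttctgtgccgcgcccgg

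Dusp1 was the member whose window held the full element TGACGTCA, which 1.79% of all 32851 windows hold. The shorter TGACG, which also lies inside the full element, was found 3 times there, 1 time each in Dusp5 and Dusp16, and in 20.8% of all windows. The AP-1 motif TGANTCA, in 7.81% of all windows, was not found in the 8. None of the 3 motifs was in the window of Dusp14. These matches are letters in a window and not binding sites.

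Dusp4 and Dusp5 encode inducible nuclear phosphatases, Dusp5 being specific for ERK, and both were low. Dusp4 was at 2.69, 4.39 and 0.334 CPM in DREADD Pilo, 2.92, 0, 1.36 and 0 CPM in CAG-GFP Pilo, 1.13, 0, 11.4 and 0 CPM in DREADD Sham, and 0 in all 3 CAG-GFP Sham libraries. With CAG-GFP Sham set to 3 counts over the group, the pooled level was at least 14.8-fold higher in CAG-GFP Pilo (86 counts). It was at least 42.8-fold higher in DREADD Sham (241 counts). These bounds leave out the spread between libraries. In both groups 2 of the 4 libraries were at 0, as in CAG-GFP Sham. Without CAG-GFP Pilo 3 the bound for CAG-GFP Pilo was 8.19-fold, and without CAG-GFP Pilo 4 it was 27.5-fold. It was 9.73-fold to 10.02-fold with 1 CAG-GFP Sham library left out. Without DREADD Sham 3, which held 195 of the 241 counts, the bound for DREADD Sham was 9.65-fold, and with 1 CAG-GFP Sham library left out it was 28.2-fold to 29.1-fold. In DREADD Sham against CAG-GFP Sham, Dusp4 did not pass the test over all genes in edgeR (adjusted p = 0.255). Dusp5 ran from 3.01 to 17.6 CPM in DREADD Pilo, 0 to 6.73 CPM in CAG-GFP Pilo, 0 to 6.07 CPM in DREADD Sham and 3.63 to 13.4 CPM in CAG-GFP Sham. Its log2 fold change of CAG-GFP Pilo over CAG-GFP Sham, -1.72 ± 2.13 (SE), was smaller than its SE, and within library set 1 it was -2.68 ± 2.60. An exon of Dusp5 overlaps another annotated gene on the opposite strand.

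Dusp6 and Dusp7 encode cytoplasmic phosphatases of ERK, and Dusp6 is a feedback target of that kinase. Dusp6 averaged 106.4 ± 90.4 CPM in DREADD Pilo, 48.1 ± 24.5 CPM in CAG-GFP Pilo, 93.3 ± 80.3 CPM in DREADD Sham and 30.5 ± 4.16 CPM in CAG-GFP Sham (SD). It spread from 9.03 to 187.5 CPM within DREADD Pilo and from 12.4 to 195.5 CPM within DREADD Sham, so the group means lay within the spread of the libraries. Dusp7 averaged 9.29 ± 11.6 CPM in DREADD Pilo, 10.7 ± 4.01 CPM in CAG-GFP Pilo, 7.31 ± 7.14 CPM in DREADD Sham and 2.31 ± 0.937 CPM in CAG-GFP Sham. Its 4 CAG-GFP Pilo libraries, at 6.41 to 15.6 CPM, were all above the 3 CAG-GFP Sham libraries, at 1.44 to 3.30 CPM. The fitted log2 fold change of CAG-GFP Pilo over CAG-GFP Sham was 2.21 ± 1.61 (SE), and 1.94 ± 1.44 within library set 1. For Dusp6 it was 0.66 ± 0.93, and 0.77 ± 0.77 within that set.

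Dusp10 and Dusp16 encode phosphatases that prefer the stress kinases JNK and p38. Dusp10 was at 5.91 to 14.01 CPM in DREADD Pilo, 0 to 15.2 CPM in CAG-GFP Pilo, 0 to 27.7 CPM in DREADD Sham and 0 to 3.85 CPM in CAG-GFP Sham. Dusp16 was at 8.70 to 25.2 CPM in DREADD Pilo, 0 to 32.8 CPM in CAG-GFP Pilo, 1.79 to 47.8 CPM in DREADD Sham and 2.44 to 8.49 CPM in CAG-GFP Sham. The log2 fold changes of CAG-GFP Pilo over CAG-GFP Sham were 1.77 ± 2.58 for Dusp10 and 1.47 ± 1.72 for Dusp16 (SE), and within library set 1 they were -0.17 ± 3.09 and -2.59 ± 2.77. That of Dusp10 was -0.66 without CAG-GFP Pilo 1 and 9.72 without CAG-GFP Sham 2, so its direction rested on single libraries. Both genes overlapped between the groups in each of the 4 comparisons described here. CAG-GFP Pilo 4, the library with the fewest detected genes, had no count for Dusp4, Dusp5, Dusp10 and Dusp16.

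**Figure D2:**
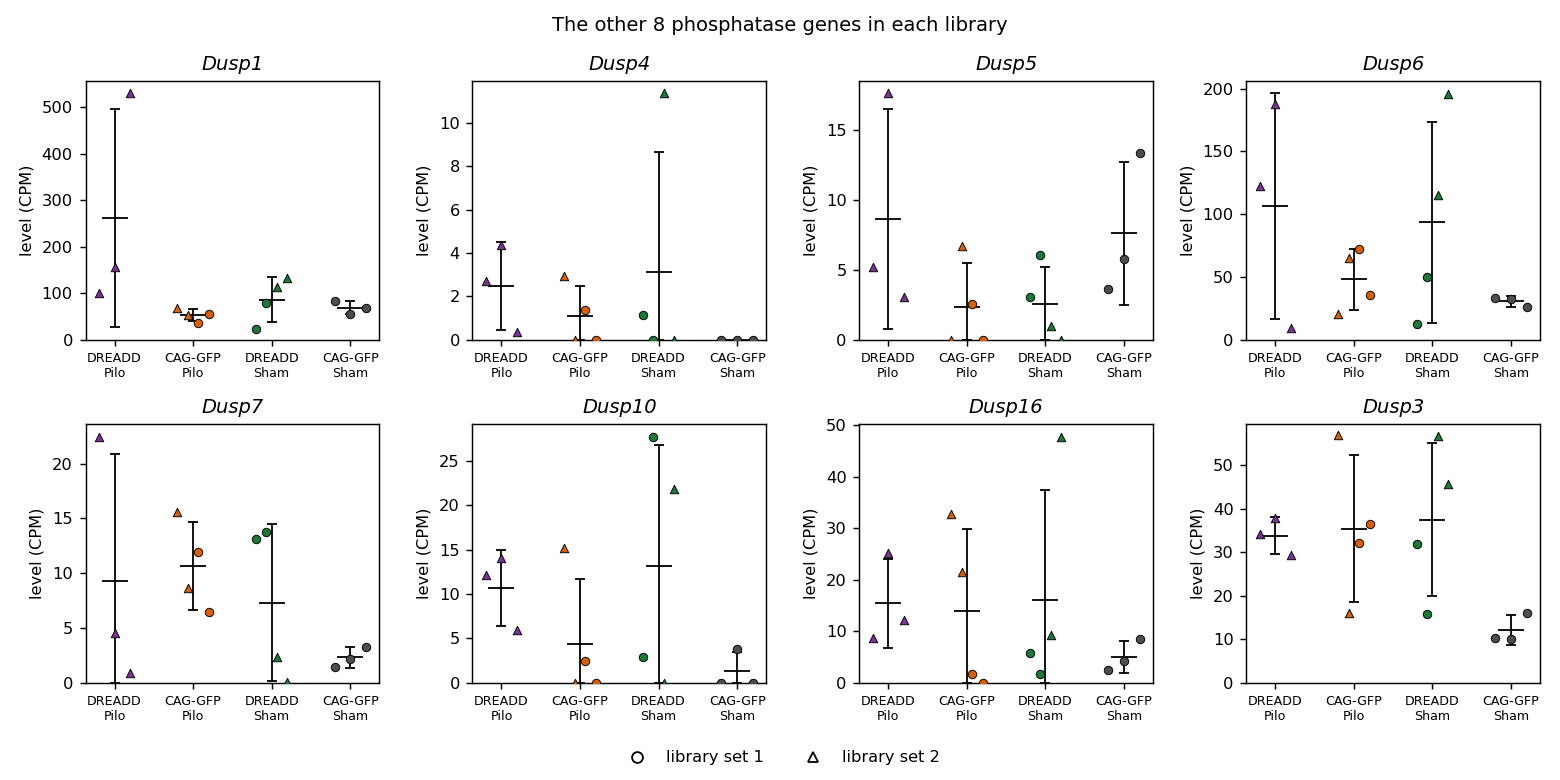
Level in CPM (vertical axes, each with its own scale) of the other 8 genes in each library by group. Circles are library set 1, triangles set 2, and bars show the mean ± SD. Dusp1 reaches 531.2 CPM in DREADD Pilo 3, and the 4 CAG-GFP Pilo libraries of Dusp7 lie above its 3 CAG-GFP Sham libraries.

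Per kilobase of exon, the mean level over all 14 libraries was 36.9 CPM per kb for Dusp26, 34.6 for Dusp14 and 33.4 for Dusp1. It was 22.3 CPM per kb for Dusp6 and 6.55 for Dusp3. The remaining 5 genes were at 2.49 (Dusp10), 2.27 (Dusp7), 1.96 (Dusp5), 1.66 (Dusp16) and 0.631 (Dusp4) CPM per kb. The order of the top 3 was not the same in each group. In DREADD Pilo Dusp1 led with 79.2 ± 70.8 CPM per kb, in CAG-GFP Pilo Dusp14 with 88.5 ± 16.9, in DREADD Sham Dusp26 with 56.7 ± 38.1 and in CAG-GFP Sham Dusp1 with 20.7 ± 4.32 (SD). The lead of Dusp1 in DREADD Pilo rested on DREADD Pilo 3. In DREADD Pilo 1 and 2 Dusp1 stood at 30.3 and 47.0 CPM per kb, below Dusp26 at 51.1 and 66.2 and Dusp6 at 39.1 and 59.9 CPM per kb.

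**Figure D3:**
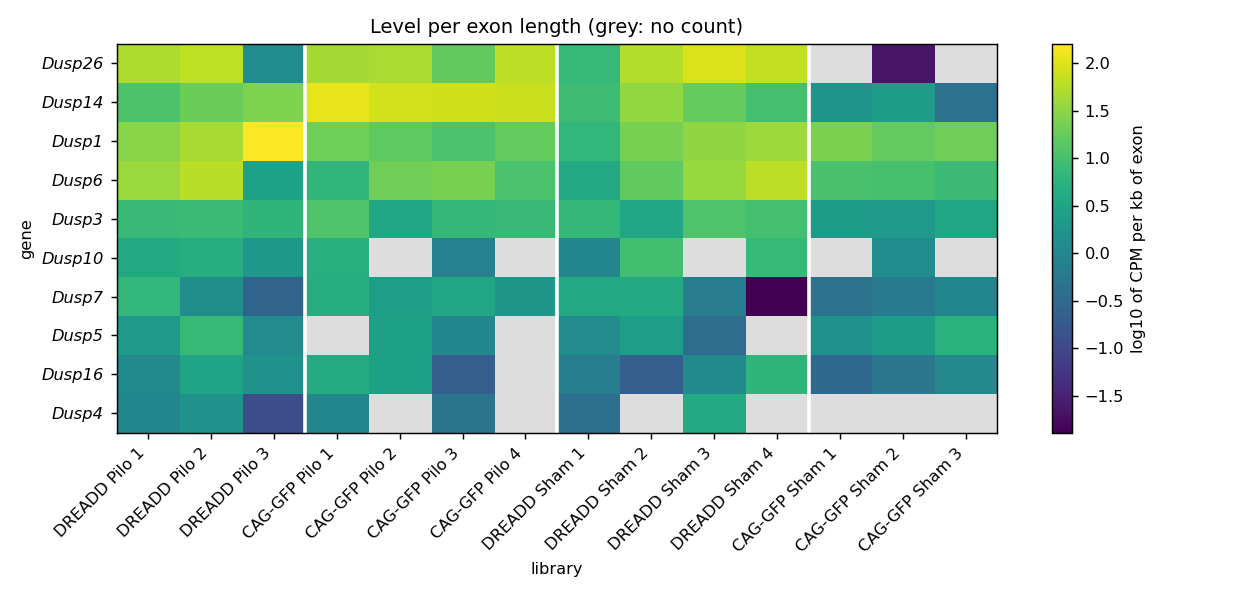
Level of the 10 genes (rows, highest mean first) in the 14 libraries (columns, by group), as log10 of CPM per kilobase of exon in colour, grey where a gene had no count. Dusp14 is brightest in CAG-GFP Pilo and Dusp1 in DREADD Pilo 3, and the CAG-GFP Sham columns are grey or dark for Dusp26 and Dusp4.

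Over the 10 genes, 2 passed the test in CAG-GFP Pilo against CAG-GFP Sham, Dusp14 and Dusp26, where 0.241% of all 18676 genes passed. The 2 were the reason for the choice, and the count is given as a description. It was 0 without CAG-GFP Pilo 1 and without any 1 of the CAG-GFP Sham libraries. Dusp7, Dusp14 and Dusp26 had all CAG-GFP Pilo libraries above all CAG-GFP Sham libraries, as did 6.55% of all genes. The log2 fold change was positive for 8 of 10 members and 58.6% of all genes, with medians of 1.66 and 0.41. Dusp4, which had no count in CAG-GFP Sham, lies above the members' median at its lower bound too.

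In DREADD Pilo against DREADD Sham no member passed in edgeR, where 0% of all genes passed. At an unadjusted p under 0.05 there was 1 member, Dusp1, and 5.18% of all genes, and DESeq2, which called 0.888% of all genes, and limma voom called no member either. No member had libraries that did not overlap, against 4.39% of all genes higher and 2.23% lower. The log2 fold change was positive for 5 of 10 members and 52.3% of all genes, with medians of 0.02 and 0.07. The members' direction was not stable here, with 9 of 10 positive and a median of 0.98 in limma voom, 8 of 10 and 0.77 with the replicate block, and 4 of 10 and -0.29 within library set 2.

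In DREADD Sham against CAG-GFP Sham, Dusp26 passed in edgeR, where 0.3% of all genes did, and it did not pass without any 1 of the CAG-GFP Sham libraries. DESeq2 called 4 members, Dusp3, Dusp4, Dusp14 and Dusp26, and 15.2% of all genes. Dusp14 and Dusp26 had all DREADD Sham libraries above all CAG-GFP Sham libraries, as did 9.01% of all genes. The log2 fold change was positive for 9 of 10 members and 61.1% of all genes, with medians of 1.67 and 0.53. This comparison and the seizure comparison with GFP alone share the CAG-GFP Sham libraries, so their values are not independent. The calls of Dusp14 and Dusp26, which were selected on those libraries, are a description here.

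In DREADD Pilo against CAG-GFP Pilo no member passed in edgeR, where 0% of all genes passed, and 2 members and 5.36% of all genes had an unadjusted p under 0.05. DESeq2 and limma voom called no member. Dusp1 was higher in all DREADD Pilo libraries, as were 5.69% of all genes, and Dusp14 was lower in all of them, as were 3.15%. These are also the 2 members with an unadjusted p under 0.05. Dusp14 was selected on these same CAG-GFP Pilo libraries, so its values here, and the counts that include it, are a description. The log2 fold change was positive for 6 of 10 members and 58.4% of all genes, with medians of 0.64 and 0.28. In the interaction no member passed in edgeR, where 0% of all genes passed, and 2 members and 11.7% of all genes had an unadjusted p under 0.05. DESeq2 called Dusp14 and Dusp26 in the interaction, where it called 8.5% of all genes, and limma voom called no member. The interaction contains the difference on which Dusp14 and Dusp26 were selected, and the 2 members under 0.05 are those genes, so these counts are a description. The interaction was positive for 2 of 10 members and 42.8% of all genes.

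**Figure D4:**
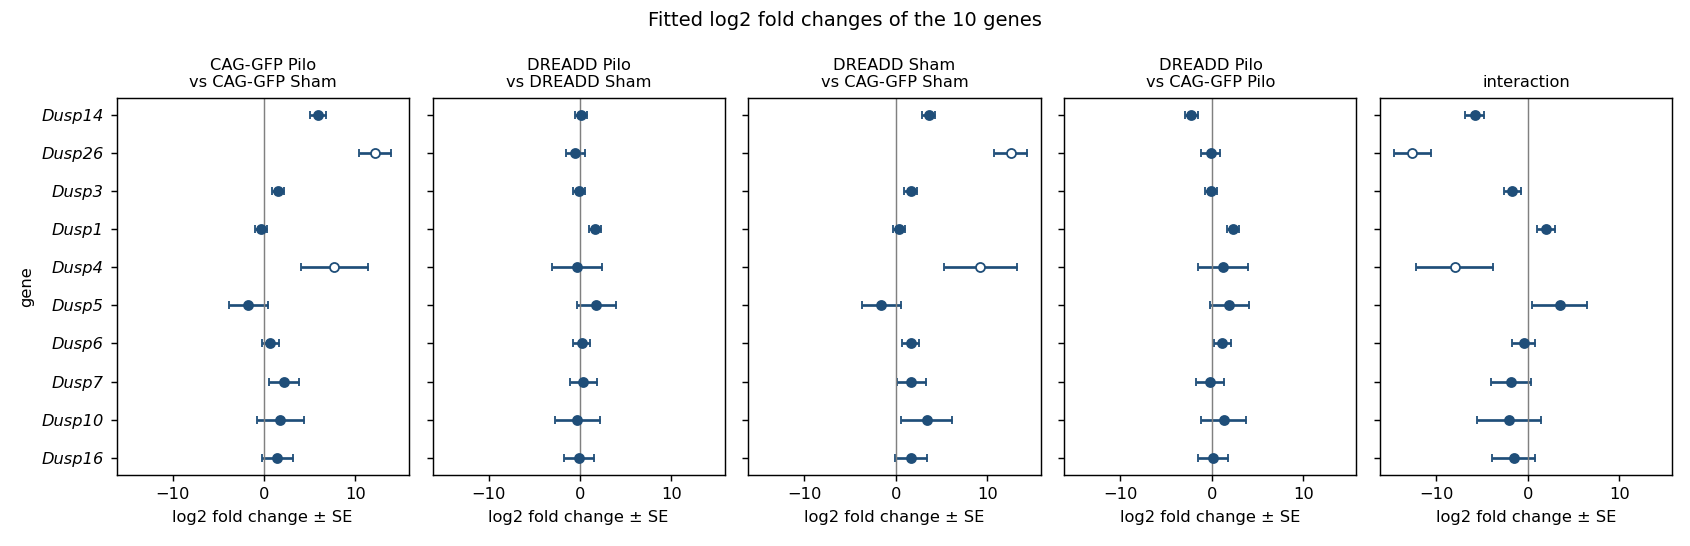
Fitted log2 fold change ± SE (horizontal axes) of the 10 genes (rows) in the 4 comparisons and their interaction. Hollow points mark fits in which a group held 3 counts or fewer. Dusp14 stands at 5.91 in CAG-GFP Pilo against CAG-GFP Sham and at 0.11 in DREADD Pilo against DREADD Sham.

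The rest of the pathway was followed through 7 lists with 73 genes, of which 68 could be tested. None passed in edgeR in any of the 4 comparisons or in the interaction. In CAG-GFP Pilo against CAG-GFP Sham, 13 of the 68 had an unadjusted p under 0.05, against 15.4% of all genes, and 46 had a positive log2 fold change, against 58.6% of all genes, with a median of 0.90. DESeq2 called 6 of them higher, among them Junb, Map2k1 and Mapk3, where it called 12.6% of all genes, and limma voom called none. In DREADD Pilo against DREADD Sham, 3 had an unadjusted p under 0.05, against 5.18% of all genes, and the median was 0.16, and neither DESeq2 nor limma voom called any.

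In DREADD Sham against CAG-GFP Sham, 8 of the 68 pathway genes had an unadjusted p under 0.05, against 18.6% of all genes, and the median log2 fold change was 0.74. DESeq2 called 5 higher there, among them Junb, Map3k3 and Mapk7, where it called 15.2% of all genes, and limma voom called Map3k3. In DREADD Pilo against CAG-GFP Pilo, 4 had an unadjusted p under 0.05, against 5.36% of all genes, the median was 0.32, and neither tool called any. In the interaction 7 did, against 11.7% of all genes, and the median was -0.49. DESeq2 called Mapk10 lower there, where it called 8.5% of all genes, and limma voom called none.

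The 7 lists held other dual-specificity phosphatases, tyrosine phosphatases of MAP kinases, MAP kinases, MAP kinase kinases, the RAS, RAF and MAP kinase kinase kinases, the Sprouty and Spred feedback inhibitors, and transcription factors that respond to the pathway. Map2k1, which encodes the kinase that activates ERK, had the highest level per kilobase of its list. It averaged 98.3 ± 45.6 CPM in DREADD Pilo, 328.8 ± 108.9 CPM in CAG-GFP Pilo, 115.6 ± 67.5 CPM in DREADD Sham and 73.7 ± 27.2 CPM in CAG-GFP Sham (SD). Mapk3, an ERK gene, averaged 50.5 CPM in DREADD Pilo, 86.8 CPM in CAG-GFP Pilo, 65.0 CPM in DREADD Sham and 25.3 CPM in CAG-GFP Sham. Araf, a RAF kinase gene, averaged 188.9 CPM in DREADD Pilo, 227.9 CPM in CAG-GFP Pilo, 171.1 CPM in DREADD Sham and 120.0 CPM in CAG-GFP Sham.

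Fos, the immediate early transcription factor with the highest level of its list, averaged 1162 ± 884.6 CPM in DREADD Pilo, 583.1 ± 475.5 CPM in CAG-GFP Pilo, 1253 ± 493.7 CPM in DREADD Sham and 1069 ± 288.7 CPM in CAG-GFP Sham (SD). Spred1, a feedback inhibitor of RAS signalling, averaged 62.0 ± 25.3 CPM in DREADD Pilo and 38.8 ± 2.01 CPM in CAG-GFP Pilo (SD). It averaged 81.6 ± 91.9 CPM in DREADD Sham and 123.3 ± 29.0 CPM in CAG-GFP Sham. Of the Sprouty and Spred list, 1 of 6 genes had a positive log2 fold change in CAG-GFP Pilo against CAG-GFP Sham, against 58.6% of all genes. The median of this list was -1.53, against 0.44 to 2.01 in the other lists, and none passed. The log2 fold changes of Spry2, Spry4 and Spred3 were smaller than their SE. The leading other phosphatase genes were low, with Dusp28 at a mean of 15.5 ± 7.46 CPM in DREADD Pilo and 19.1 ± 17.7 CPM in CAG-GFP Pilo (SD). Its mean was 8.81 ± 7.62 CPM in DREADD Sham and 2.67 ± 2.09 CPM in CAG-GFP Sham. Ptpn5, the gene of the striatum-enriched tyrosine phosphatase, averaged 6.88 ± 6.89 CPM in DREADD Pilo and 21.6 ± 36.9 CPM in CAG-GFP Pilo (SD). It averaged 25.7 ± 17.0 CPM in DREADD Sham and 9.10 ± 1.78 CPM in CAG-GFP Sham.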

How the data were processed

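The values deposited by the authors were raw counts, whole numbers that sum to a different total in each of the 14 libraries, over 43346 genes. Per the submitters' processing notes, the work used Bowtie2, Subread with featureCounts, edgeR and R 4.1.1, and the build hg38, which does not match the mouse identifiers in the table. The annotation release was not given in the sources used here, nor were the strand setting and the treatment of reads with several matches. Symbols, positions and exon lengths came from GENCODE M21 on GRCm38, matched for 42462 identifiers (98%).

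All 14 libraries entered 1 edgeR fit (version 4.0.16, R 4.3.3) with TMM factors and the quasi-likelihood F-test. The filterByExpr filter left 18676 genes, over which p-values were adjusted by Benjamini-Hochberg at 0.05. The script was tested on simulated data. Alternatives used DESeq2 1.42.0, limma voom 3.58.1, DESeq2 size factors, no filter, a library set or replicate term, fewer groups, and each library left out. Log2 CPM used a prior count of 2. Libraries of the same group all differed by more than sampling noise. The members, gene lists and named genes (all 10 members, the 5 genes most like Dusp14 and Dusp26, and the gene with the highest level of each pathway list) were chosen with earlier results of these data known. Not every pathway gene is reported by name here. A group with no count was set to 3 counts over the group, and intervals are 95% exact.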

Additional observations from a re-analysis of the deposited data

Results flagged for a closer look

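In 3 of 20 gene and group combinations of 4 libraries, 1 library lay far from the other 3 (the gap to the nearest, as a share of the group's range, was over the 95% critical value of Dixon's test), and chance flags about 1 in 20. Dusp4 stood at 11.38 CPM in DREADD Sham 3, with a gap of 0.901 of the range. Dusp10 stood at 15.15 CPM in CAG-GFP Pilo 1, with a gap of 0.84. Dusp16 stood at 47.75 CPM in DREADD Sham 4, with a gap of 0.839.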

How the results depend on the processing

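Of the 10 members, 2 passed in CAG-GFP Pilo against CAG-GFP Sham under every setting that kept all libraries except the replicate block, which gave 0. With 1 library left out the count ran from 0 to 2, and it was 0 without CAG-GFP Pilo 1 or any CAG-GFP Sham library. In DREADD Sham against CAG-GFP Sham the count of 1 became 4 with DESeq2, 2 with the library set as a covariate and 0 with the replicate block, and ran from 0 (without any of the CAG-GFP Sham libraries) to 1. In the interaction the count of 0 became 2 with DESeq2, 1 with the library set as a covariate and 1 without the filter. Between DREADD Pilo and DREADD Sham, the log2 fold change of Dusp14 ran from -0.20 to 0.67 with 1 library left out (-0.12 without DREADD Sham 1, -0.09 without DREADD Sham 4), and that of Dusp26 from -1.13 to 0.03. Of 50 log2 fold changes of members, 19 changed sign under at least 1 alternative, 8 of them in DREADD Pilo against DREADD Sham; the cause was not tested.

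Genes called over the whole table moved more. In CAG-GFP Pilo against CAG-GFP Sham the 45 became 2203 with DESeq2, 777 with limma voom, 168 with only the groups compared, 89 with the library set as a covariate, 471 within library set 1, 1 with the replicate block and 3 to 15 with 1 library left out. In DREADD Sham against CAG-GFP Sham the 56 became 2655, 858, 647, 146, 530, 0 and 6 to 12 under the same settings. The 0 of DREADD Pilo against DREADD Sham became 158 with DESeq2 and 2 with the library set as a covariate, and the 0 of DREADD Pilo against CAG-GFP Pilo became 172 with DESeq2. The 0 of the interaction became 1461 with DESeq2, 37 with limma voom, 11 with the library set as a covariate, 3 without the filter and 1 without DREADD Pilo 3. Same-numbered libraries of different groups correlated at -0.381 to 0.115 (median -0.018) in their deviations from the group means. Libraries with other numbers correlated at -0.354 to 0.433 (median 0.002). Many same-numbered libraries were in different library sets, so these values cannot tell whether the numbers pair the samples. Without TMM factors the CAG-GFP Sham means of Dusp1, Dusp3 and Dusp6 were 48.1, 8.49 and 21.4 CPM. By Spearman correlation, 1 of the 5 genes most like Dusp14 and 1 of the 5 most like Dusp26 were the same.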
